A study of Mus musculus with 6 samples.

Results

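The genes described here are 8 transcription regulators of the mesenchyme around the developing eye, Foxc1, Foxc2, Eya2, Six2, Twist1, Prrx1, Tfap2b and Lmx1b, taken by symbol from 41128 features listed in poly(A) RNA-seq of mouse lenses of stage E15.5. All 8 were listed, 7 had at least 1 read, and 4 passed a filter of at least 1 CPM (the read count scaled to the total of its library) in at least 3 libraries. The 3 libraries called cKO came from lenses labelled beta1 Flox/Flox MLR10 Cre+, whose strain background is given as a mix, and each replicate pooled 30 lenses. MLR10 is a Cre transgene active in lens epithelium and fibre cells, where it recombines the floxed gene of the integrin beta1 subunit. The 3 wild-type libraries came from C57Bl/6 lenses, with no floxed allele or transgene named in their labels, each replicate pooling 75 lenses, and are records duplicated from an earlier series. Genotype, strain background, Cre, pool size and sequencing depth (20036554 to 28095318 reads in cKO, 10023049 to 11531139 in wild type) all differ together between the groups and cannot be told apart.

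Periocular mesenchyme comes from neural crest and from cranial mesoderm, and it gives rise to the corneal stroma and endothelium, the iris stroma, the trabecular meshwork, the sclera and the vessels and muscles beside the eye. Foxc1, Tfap2b and Lmx1b are known for their roles in the anterior segment, and loss of FOXC1 function causes Axenfeld-Rieger anomalies in humans. At this stage the lens also carries on its surface the tunica vasculosa lentis, a vessel network with endothelial cells, pericytes and macrophages, so that a dissected lens can bring such cells into the RNA. In bulk RNA, fewer or more cells of a type and less or more RNA per cell cannot be told apart.

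The targeted gene checked the labels. Itgb1 was at 236, 275 and 262 CPM in cKO replicates 1 to 3 and at 402, 424 and 448 CPM in the wild-type replicates, so every cKO library lay below every wild-type library (log2 fold change -0.72, SE 0.08, limma adjusted p = 1.63e-05). Among the markers of the optic cup and pigment epithelium, Six6 was highest in replicate 2 of each group. Six6, an optic cup homeodomain factor, was at 0.499, 1.43 and 0.712 CPM in cKO and at 0.087, 2.10 and 0.10 CPM in wild type, so results are also given without replicate 2 of both groups. The tissue label held, in that lens genes such as Cryaa, Crybb1 and Mip summed to 218107 to 248413 CPM in cKO and 235178 to 253713 CPM in wild type over 14 lens markers. Genes listed for mesenchymal matrix and signalling ranged widely, and which cells expressed them was not tested. Pdgfra averaged 173 CPM in cKO and was at 211 CPM in wild type, whereas Kera and Lum, keratan sulphate proteoglycans of the corneal stroma, averaged 0 and 0.724 CPM in cKO and 0.0333 and 0.0874 CPM in wild type.

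The promoters of the members that stood higher in cKO, as far as RefSeq's table for GRCm38.p6 held them, are shown because these genes stood on the same side in every library. The table matched 6 of the 8 members, and Foxc2 and Eya2 had no entry. Capitals mark matches to 1 of 5 motifs searched on both strands in the 250 bases before the RefSeq start, and each sequence stops before the first annotated transcript base. Foxc1 is at chr13:31806396-31806632, plus strand. Twist1 is at chr12:33957421-33957670, plus strand. Prrx1 is at chr1:163313711-163313900, minus strand, and all 3 are written 5′ to 3′ on the strand of the gene.
Foxc1: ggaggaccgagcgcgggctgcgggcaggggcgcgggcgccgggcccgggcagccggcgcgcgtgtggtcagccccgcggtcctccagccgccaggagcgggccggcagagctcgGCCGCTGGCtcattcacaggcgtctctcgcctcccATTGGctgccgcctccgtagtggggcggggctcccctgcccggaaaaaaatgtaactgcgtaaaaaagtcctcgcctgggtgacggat
Twist1: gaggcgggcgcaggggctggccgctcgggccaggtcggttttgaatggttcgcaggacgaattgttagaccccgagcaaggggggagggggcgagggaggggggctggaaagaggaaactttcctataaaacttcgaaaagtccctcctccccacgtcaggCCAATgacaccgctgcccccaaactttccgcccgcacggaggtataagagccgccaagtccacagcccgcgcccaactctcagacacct
Prrx1: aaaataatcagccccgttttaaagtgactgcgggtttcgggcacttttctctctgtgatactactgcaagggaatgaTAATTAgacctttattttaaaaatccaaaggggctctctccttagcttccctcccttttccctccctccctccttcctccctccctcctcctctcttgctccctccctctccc
No motif was shared by all 3, and no match overlapped another. The homeodomain motif TAATTA was in Prrx1, 173 to 168 bases before the start, and in 4.84% of 32851 promoters. The AP-2 motif GCCNNNGGC was in Foxc1, 136 to 128 bases before the start, and in 13.7% of promoters. CCAAT was in Foxc1 on the minus strand (ending 97 bases before the start), in Twist1 (89 to 85 bases before), in Six2 and in Lmx1b, and in 33.8% of promoters. The E-box CANNTG, the core recognised by Twist proteins, was in Tfap2b and Lmx1b and in 66.2% of promoters. The forkhead core TGTTTA was in none of the 6 matched members and in 12.0% of promoters. GC content of the 250 bases was 70.8% in Foxc1, 62.4% in Twist1 and 47.6% in Prrx1, against a median of 52.4% over all promoters.

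Of the 8 genes, 3 were called higher in cKO (Foxc1, Eya2 and Prrx1), none was called lower, Tfap2b was tested and not called, and 4 were not tested. The limma test on log2(CPM + 1) called 20.9% of all 11941 genes tested higher and 15.9% lower, 36.9% in either direction, at an adjusted p under 0.05. Of the 3 called, Eya2 passed the filter through cKO libraries alone, and 92.9% of 126 such genes were called higher. The call of Eya2 is therefore a description, and Foxc1 and Prrx1 were the other calls. Without overlap between the groups, 4 of the 7 members with a read were higher in cKO (Foxc1, Eya2, Twist1 and Prrx1), against 21.1% of all 19059 features with a read and 26.9% of the genes tested, and none was lower. The members were chosen with earlier results of these data known, so these counts are a description. An exact permutation test of 3 libraries against 3 cannot go below p = 0.1, so single genes rest on the fit across all genes.

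**Figure D1:**
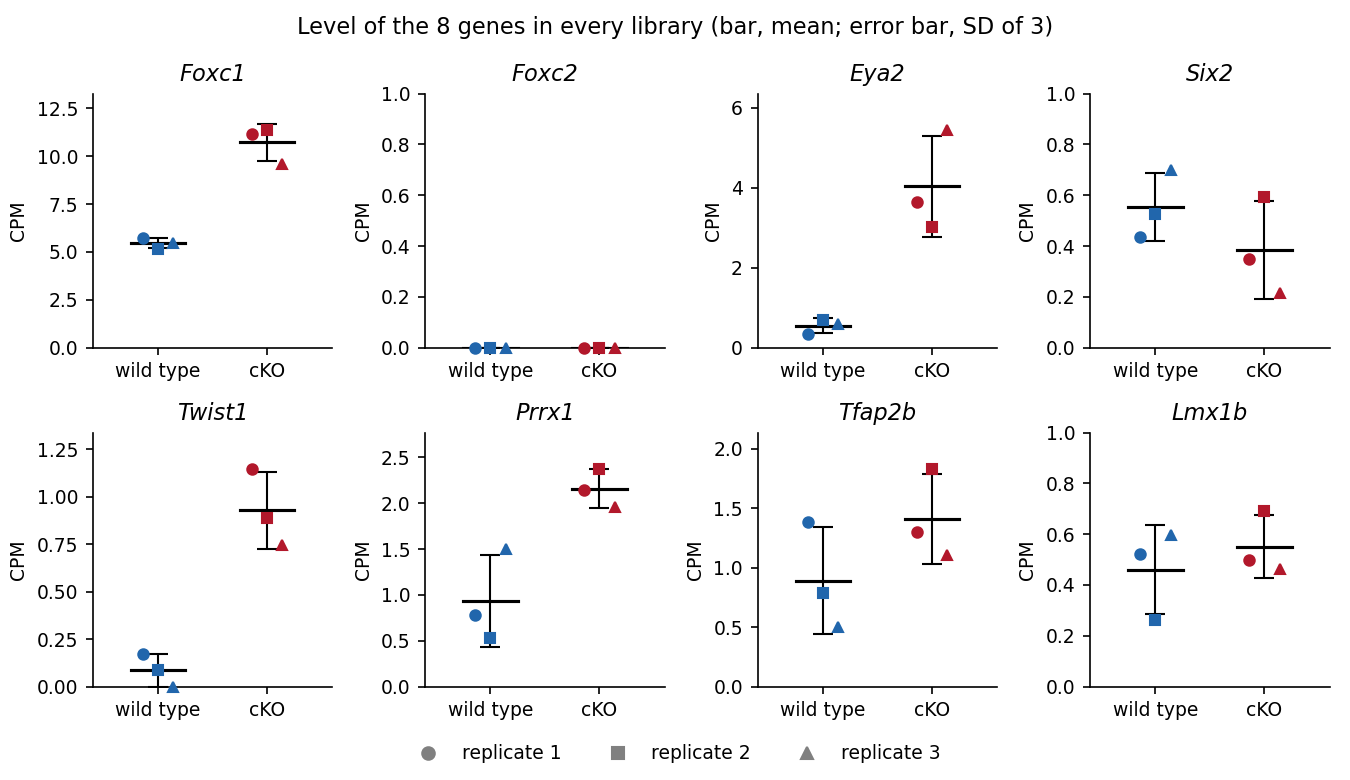
CPM of each gene (linear axis from 0, own scale per panel) in the 3 wild-type (blue) and 3 cKO (red) libraries, with the mean and the SD. Foxc1, Eya2, Twist1 and Prrx1 have every cKO library above every wild-type library, Six2, Tfap2b and Lmx1b overlap, and Foxc2 is at 0 throughout.

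Foxc1, a forkhead factor of the anterior segment that also acts in blood vessels, was the most abundant member. It was at 11.2, 11.4 and 9.61 CPM in cKO replicates 1 to 3 and at 5.72, 5.17 and 5.49 CPM in the wild-type replicates. The cKO libraries all lay well above the wild-type ones, which were close to each other. The means were 10.7 ± 0.968 and 5.46 ± 0.277 CPM (SD, n = 3), a ratio of 1.96. The log2 fold change was 0.86 (SE 0.11, 95% interval 0.61 to 1.10, limma adjusted p = 0.000106). In reads, Foxc1 rested on 724 in cKO and 180 in wild type, and the ratio of the pooled rates was 1.94 (exact 95% interval 1.65 to 2.30, counting error only). Without replicate 2 of both groups the log2 fold change of Foxc1 was 0.78 (limma adjusted p = 0.00598). The gene lies at chr13:31806633-31812476 on the plus strand of GRCm38, and its nearest coding neighbour, Gmds, does not overlap it. Gmds was at 8.14, 9.89 and 9.65 CPM in cKO and at 7.98, 8.85 and 8.68 CPM in wild type, so the groups overlapped. Per kilobase, Foxc1 reached 2.71 RPKM in cKO and 1.38 RPKM in wild type, above 33.3% and 21.1% of the genes tested in the same group.

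Foxc2, the close paralogue of Foxc1 with roles in mesenchyme and lymphatic vessels, was listed at 0 in all 6 libraries. A count of 0 allows up to 3 reads, which is 0.107 CPM in the deepest library and 0.299 CPM in the shallowest. Foxc1 therefore made up every Foxc read counted. Foxc2 (chr8:121116171-121118895) lies within the span of the gene model Gm20388 (chr8:119910841-124345722) on the same strand, which was itself listed at 0, and it shares no exonic base with another listed gene. Of 73 coding genes overlapping that span, 64 had reads and 9 were at 0, Foxc2 and its neighbour Foxl1 among them. Over all 21262 coding genes listed, 22.3% were at 0. Of the 50-base words of the Foxc2 transcript, 4 of 2676 also occur in Foxc1, so reads of the pair can mostly be told apart.

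Eya2, a phosphatase and co-activator that works with homeodomain proteins of the sine oculis family, showed the largest change of the members tested. Its level was 3.64, 3.02 and 5.45 CPM in cKO and 0.347, 0.701 and 0.599 CPM in wild type. Even the lowest cKO library stood far above the highest wild-type library, and cKO replicate 3 was the highest of all. The means were 4.04 ± 1.26 and 0.549 ± 0.182 CPM (SD, n = 3), a ratio of 7.35. The log2 fold change was 1.68 (SE 0.18, 95% interval 1.28 to 2.07, limma adjusted p = 1.93e-05), and 39 of the genes tested had a larger one. The wild-type side rested on 4, 8 and 6 reads, and the ratio of pooled rates was 7.69 (exact 95% interval 4.78 to 13.2, counting error only). Because these values are low, the pseudocount shrinks the fold change, and edgeR on reads recovered from the CPM steps gave 2.87 on the log2 scale for Eya2. Eya2 passed the filter through its cKO libraries alone. Of 126 genes that did so, 92.9% were called higher, and its call is given as a description. Without replicate 2 of both groups the log2 fold change of Eya2 was 1.90 (limma adjusted p = 0.000486). The gene lies at chr2:165595032-165771727 on the plus strand. Its neighbour Zmynd8 was at 66.9, 70.1 and 68.2 CPM in cKO and at 93.0, 85.7 and 86.1 CPM in wild type. Every cKO library thus lay below every wild-type library for Zmynd8. Slc2a10, on the other side, was at 2.05, 2.28 and 1.96 CPM in cKO and at 1.56, 1.58 and 1.30 CPM in wild type. For Slc2a10 every cKO library thus lay above every wild-type library. The pseudogene Gm11460 within Eya2 was listed at 0.

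The other Eya genes, grouped with Eya2 after their values were seen, include genes known in the lens. Eya1 and Eya3 led the family, with 5.13 and 5.67 RPKM in cKO and 5.83 and 7.71 RPKM in wild type, and Eya4 was at 1.56 and 1.16 RPKM. Eya2 overlapped the level of Eya4 in cKO, with 1.36 RPKM against 0.185 RPKM in wild type. As a share of the summed Eya RPKM, Eya2 was at 9.52%, 7.27% and 12.9% in cKO and at 0.874%, 1.60% and 1.23% in wild type (means 9.90% ± 2.83 and 1.23% ± 0.361, SD, n = 3). The shares did not overlap, with an exact permutation p of 0.1, two-sided, the smallest the design allows. Eya3 fell by 0.43 on the log2 scale (limma adjusted p = 0.00224), while Eya1 (-0.18, adjusted p = 0.122) and Eya4 (0.39, adjusted p = 0.0797) did not pass the test.

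Six2, a homeodomain factor of mesenchyme and of kidney progenitors and a partner of Eya proteins, did not follow Eya2. It was at 0.349, 0.594 and 0.214 CPM in cKO and at 0.434, 0.526 and 0.698 CPM in wild type. The groups overlapped, and cKO replicate 3 was the lowest. These values rest on 6 to 12 reads a library in cKO and 5 to 7 in wild type, below the filter. The ratio of pooled rates was 0.670 (exact 95% interval 0.351 to 1.30, counting error only), and without a filter the limma adjusted p was 0.416. Six2 lies at chr17:85684277-85688274 on the minus strand, 54975 bases from the lens and optic cup gene Six3. Six3 was at 28.3 RPKM in cKO and 28.8 RPKM in wild type, whereas Six2 was at 0.182 and 0.261 RPKM. Six2 thus made up 0.500% ± 0.214 of the RPKM summed over Six2 to Six6 in cKO and 0.722% ± 0.197 in wild type (SD, n = 3). Six5 followed Six3, with 6.51 and 6.72 RPKM.

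**Figure D2:**
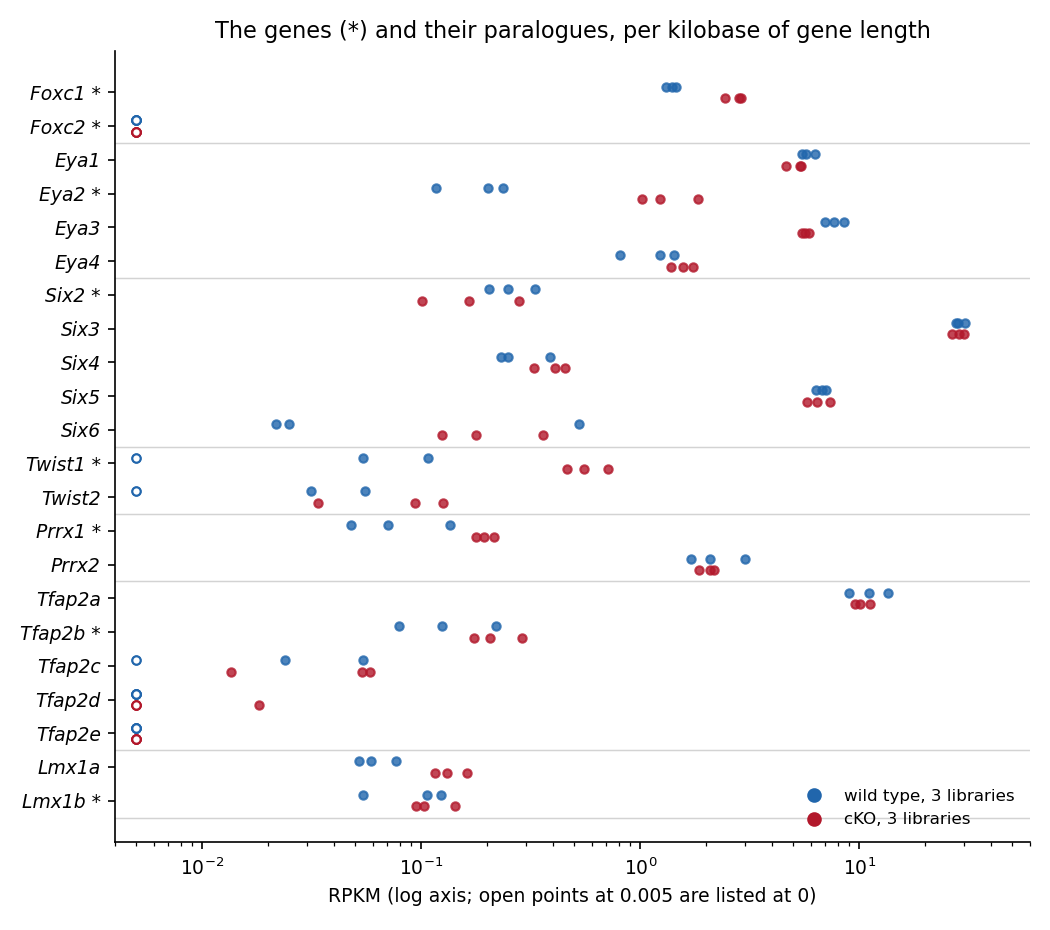
RPKM (log axis) of the 8 genes, marked with an asterisk, and their paralogues in the 3 wild-type (blue) and 3 cKO (red) libraries; open points drawn at the left edge are listed at 0. Foxc1, Eya2, Twist1 and Prrx1 separate by group, while the paralogues Six3, Prrx2 and Tfap2a overlap between the groups. Of the other paralogues, Eya1 and Eya3 separate with cKO lower, and Lmx1a separates with cKO higher.

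Twist1, a basic helix-loop-helix factor of neural crest and mesoderm, had 62 reads in the cKO libraries and 3 in the wild-type libraries. It was at 1.15, 0.890 and 0.747 CPM in cKO and at 0.173, 0.0877 and 0 CPM in wild type. The groups did not overlap, and the wild-type replicates held 2, 1 and 0 reads. The means were 0.929 ± 0.203 and 0.0870 ± 0.0867 CPM (SD, n = 3). The ratio of pooled rates was 9.97 (exact 95% interval 3.26 to 49.6, counting error only). A single cKO library reached 1 CPM, so Twist1 was not tested in the main analysis. Without a filter, the limma log2 fold change of Twist1 was 0.82 (adjusted p = 0.00105), and that analysis called 12.9% of 19059 features higher. EdgeR without a filter gave Twist1 3.21 on the log2 scale (adjusted p = 9.85e-06) and called 14.4% higher. Twist1 lies at chr12:33957671-33959829, and its neighbours Ferd3l and Hdac9 do not overlap it. Ferd3l was at 0 in every library. Hdac9 was at 7.09, 8.06 and 6.76 CPM in cKO and at 4.08, 4.12 and 3.09 CPM in wild type. Every cKO library thus lay above every wild-type library for Hdac9 too. Twist2, the paralogue of Twist1, averaged 0.268 CPM in cKO against 0.0917 CPM in wild type. Hand1 and Hand2, related factors that can pair with Twist1, were listed at 0. Its E-protein partners differed. Tcf4 rose by 0.42 on the log2 scale (limma adjusted p = 0.00166) and Tcf3 fell with a log2 fold change of -0.30 (adjusted p = 0.00817). Tcf12 was at -0.06 and was not called (adjusted p = 0.610).

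Prrx1, a paired-type homeodomain factor of limb and craniofacial mesenchyme, was at 2.15, 2.37 and 1.96 CPM in cKO and at 0.780, 0.526 and 1.50 CPM in wild type. The cKO libraries lay close together, and the wild-type libraries spread over a wide range below them. The means were 2.16 ± 0.209 and 0.934 ± 0.503 CPM (SD, n = 3). The log2 fold change was 0.74 (SE 0.18, 95% interval 0.34 to 1.13, limma adjusted p = 0.00674), and the pooled rates had a ratio of 2.35 (exact 95% interval 1.58 to 3.60, counting error only). Without replicate 2 of both groups Prrx1 was at 0.53 on the log2 scale and was no longer called (limma adjusted p = 0.0942). EdgeR gave Prrx1 a log2 fold change of 1.20. The gene lies at chr1:163245119-163313710 on the minus strand, where the antisense gene Gm20471 and the noncoding gene Gm26523 within it were listed at 0. The neighbour Gorab was at 11.6, 10.7 and 9.86 CPM in cKO and at 9.45, 9.73 and 8.28 CPM in wild type. For Gorab too, every cKO library lay above every wild-type library. Prrx2, the paralogue of Prrx1, was the more abundant gene per kilobase, with 2.03 RPKM in cKO and 2.26 RPKM in wild type. Prrx1 was at 0.195 and 0.0844 RPKM. Prrx2 changed by -0.10 on the log2 scale and did not pass the test (limma adjusted p = 0.670), so that the share of Prrx1 in their sum was 8.78% ± 0.811 in cKO and 3.44% ± 0.806 in wild type (SD, n = 3, exact permutation p = 0.1, two-sided).

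Tfap2b, an AP-2 factor of neural crest needed for the corneal endothelium, was at 1.30, 1.83 and 1.10 CPM in cKO and at 1.39, 0.789 and 0.499 CPM in wild type. Wild-type replicate 1 lay above 2 of the cKO libraries, and the groups overlapped. The means were 1.41 ± 0.376 and 0.892 ± 0.453 CPM (SD, n = 3), and the log2 fold change of 0.37 did not pass the test (SE 0.19, 95% interval -0.05 to 0.78, limma adjusted p = 0.152). Without wild-type replicate 1 the log2 fold change of Tfap2b was 0.55 and was called (limma adjusted p = 0.0397). Tfap2a, an AP-2 factor expressed in lens epithelium, was far more abundant, with 10.3 RPKM in cKO and 11.2 RPKM in wild type against 0.223 and 0.141 RPKM for Tfap2b. Tfap2b lies at chr1:19208914-19238576, and its neighbour Tfap2d had a read in cKO replicate 3 alone, at 0.0356 CPM.

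Lmx1b, a LIM homeodomain factor of the anterior segment, limb and kidney, was at 0.499, 0.693 and 0.463 CPM in cKO and at 0.520, 0.263 and 0.599 CPM in wild type. The libraries of the groups were interleaved. The means were 0.551 ± 0.124 and 0.461 ± 0.176 CPM (SD, n = 3), too low for the test. The ratio of pooled rates was 1.19 (exact 95% interval 0.637 to 2.33, counting error only), and without a filter the limma adjusted p was 0.677. Lmx1b lies at chr2:33560965-33640511 on the minus strand, 682 bases from the antisense gene C130021I20Rik. Its paralogue Lmx1a averaged 0.462 CPM in cKO against 0.212 CPM in wild type, without overlap. Ldb2 and Ldb1, adaptors that bind LIM homeodomain proteins, changed in opposite directions. Ldb2 rose by 1.25 on the log2 scale (6.18 ± 0.731 against 2.04 ± 0.524 CPM, SD, n = 3, limma adjusted p = 5.53e-05), and Ldb1 fell with a log2 fold change of -0.24 (adjusted p = 0.0245).

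In order of RPKM in cKO, the members ran Foxc1 (2.71), Eya2 (1.36), Twist1 (0.575), Tfap2b (0.223), Prrx1 (0.195), Six2 (0.182) and Lmx1b (0.113). In wild type, Foxc1 (1.38) stood first, followed by Six2 (0.261), Eya2 (0.185), Tfap2b (0.141), Lmx1b (0.0944), Prrx1 (0.0844) and Twist1 (0.0539). Foxc1 lay above every other member in every library of its group. Below it, neighbours in the wild-type order lay within each other's spread, and in cKO so did the neighbours from Tfap2b to Lmx1b. Twist1 was thus the third in cKO and the last among those with a read in wild type.

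The members also differed among the cKO libraries. Foxc1, Six2, Twist1, Prrx1, Tfap2b and Lmx1b were lowest in cKO replicate 3, a pattern seen in 27.9% of all genes tested. Eya2 had its highest value there, as did 21.8% of genes tested. In 5 of the 7 members with reads, cKO replicate 2 was highest, and 59.3% of genes tested shared that. This is a description of 3 libraries, and replicate 3 was also the deepest.

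**Figure D3:**
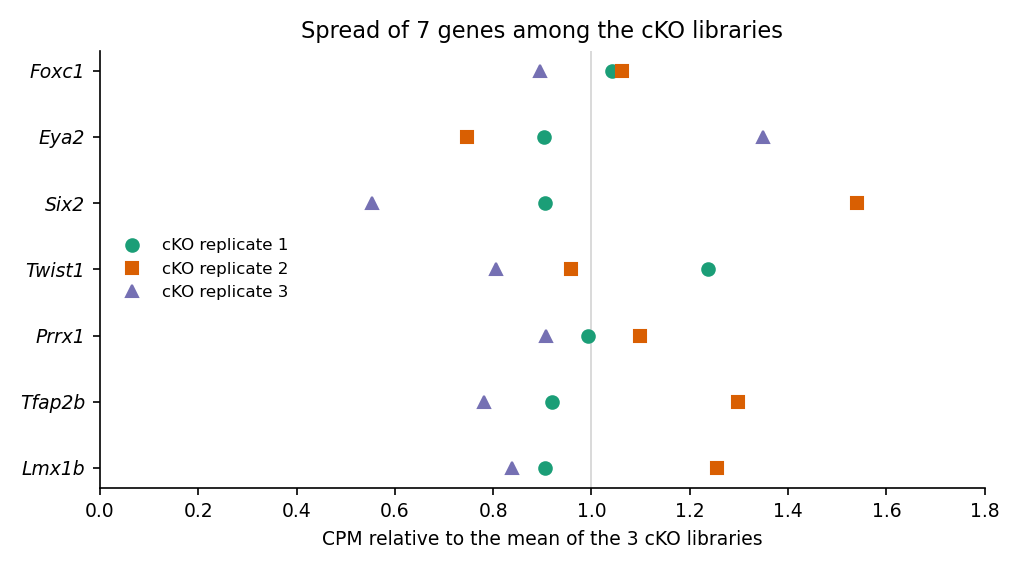
CPM in each cKO library divided by the mean of the 3 cKO libraries (horizontal linear axis) for the 7 genes with reads; symbols mark the replicate. Replicate 3 is the lowest point in 6 genes and the highest in Eya2, and Six2 and Eya2 spread most.

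Other transcription factors of periocular and cranial mesenchyme were called in the upward direction in the main analysis. Of 35 such factors, 20 were tested, 8 were called higher and none lower, with a median log2 fold change of 0.26. Over all genes tested the median was 0.03, and 20.9% were called higher and 15.9% lower. The list was chosen with earlier results of these data known, so its counts are a description. Sox9, a chondrogenic and neural crest factor, rose from 1.28 ± 0.29 to 4.75 ± 0.761 CPM (SD, n = 3, log2 fold change 1.33, limma adjusted p = 3.33e-05). Ebf1 rose by 1.05 on the log2 scale (adjusted p = 0.000123) and Ebf3 by 0.88 (adjusted p = 0.00114), both Ebf factors being known in mesenchyme. Ebf3, like Eya2, passed the filter through cKO alone, so its values are a description. Runx2, the osteoblast factor, rose by 0.69 (adjusted p = 0.00269). The remaining calls included Nr2f2, Nr2f1 and Meis2. The count called higher was 4 without cKO replicate 2, 4 without replicate 2 of both groups, 5 without cKO replicate 3 and 4 where a mean of at least 5 CPM was required. With TMM, RLE, edgeR and limma-voom 8 were higher and 1 lower, and with the GC content and length correction 6 and 1. The 15 factors not tested included Alx1, Foxd1 and Tbx18, all under 1 CPM on average in both groups.

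Partners and paralogues of the members split by direction. Of 31, 21 were tested, 3 were called higher and 6 lower, with a median log2 fold change of -0.10. Over all genes tested, 20.9% were called higher and 15.9% lower. The lower calls were led by Cited4 (6.31 ± 1.43 CPM in wild type, 1.74 ± 0.305 CPM in cKO, log2 fold change -1.41, limma adjusted p = 3.02e-05) and Cited1 (-0.80, adjusted p = 0.00169), which are co-activators in the family of the AP-2 co-activator Cited2. Cited2 itself was at -0.15 on the log2 scale (adjusted p = 0.196). Without cKO replicate 3 the lower count was 3, and the higher count was 5 without wild-type replicate 2.

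The retinoic acid pathway is a known input to periocular mesenchyme from the lens and optic cup. Of 18 pathway genes 16 were tested, 6 were called higher and 2 lower, with a median log2 fold change of 0.09. These were 37.5% and 12.5% of those tested, against 20.9% and 15.9% of all genes tested. The lower pair were Aldh1a1, the retinal dehydrogenase of the lens (919 ± 82 CPM in cKO, 1242 ± 21.4 CPM in wild type, SD, n = 3, log2 fold change -0.44, limma adjusted p = 0.000788), and Stra6, the retinol transporter (-0.44, adjusted p = 0.00116). Crabp2, a retinoic acid binding protein, rose by 1.30 on the log2 scale (adjusted p = 0.00289) and the receptor Rarg by 0.59 (adjusted p = 0.0033). Where a mean of at least 5 CPM was required, 1 was called higher.

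Genes of mesenchymal matrix and signalling were called in both directions. Of 26 mesenchymal matrix and signalling genes, 19 were tested, 9 were called higher and 3 lower, with a median log2 fold change of 0.45. These were 47.4% and 15.8% of those tested. Over all genes tested, 20.9% were called higher and 15.9% lower, so the lower share was near that of all genes. The higher calls included Cxcl12 (1.95, limma adjusted p = 2.07e-05), Col1a2 (1.11, adjusted p = 9.74e-05) and Col5a2 (0.83, adjusted p = 0.000278). Cxcl12 and Postn passed the filter through cKO alone, where 92.9% of genes were called higher, so their calls are a description. Pdgfra, Mfap4 and Ogn were called lower, and Pdgfra made up a large part of the summed level. That sum overlapped, at 422 to 507 CPM in cKO and 400 to 471 CPM in wild type. The higher count was 5 without cKO replicate 2.

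Endothelial markers had 10 of 12 called higher and none lower, and their sum was 238 to 285 CPM in cKO against 147 to 181 CPM in wild type. Over all genes tested, 20.9% were called higher and 15.9% lower. Tek, an angiopoietin receptor, rose by 1.05 on the log2 scale (limma adjusted p = 8.96e-06). Pericyte markers had 4 of 7 called higher and 1, Notch3, lower, with sums of 145 to 169 and 103 to 131 CPM, and Rgs5 rose by 1.06 (adjusted p = 1.31e-06). Macrophage markers had 8 of 9 tested called higher, with sums of 25.4 to 36.1 and 10.5 to 13.5 CPM. All 8 lay under a mean of 5 CPM, and Fcer1g and Tyrobp passed the filter through cKO alone. Without replicate 2 of both groups 2 pericyte markers were called higher. The summed levels of these 3 marker lists were higher in every cKO library than in every wild-type library, as were Foxc1, Eya2, Twist1 and Prrx1, and their part in those results was not tested.

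Summed markers of 3 other neighbouring tissues overlapped between the groups, and those of crest-derived glia did not. Optic cup and pigment epithelium markers summed to 31.3 to 37.3 CPM in cKO and 27.6 to 45.6 CPM in wild type, and none of 3 tested was called. Skeletal muscle markers summed to 0.890 to 1.20 CPM in cKO and 0.526 to 1.80 CPM in wild type, with Pax3 at 0. Surface ectoderm markers summed to 0.495 to 0.948 CPM in cKO and 0.694 to 0.798 CPM in wild type, with Krt12 at 0, and neither list had a gene that could be tested. Markers of crest-derived glia summed to 7.15 to 8.81 CPM in cKO and 6.14 to 6.68 CPM in wild type, and neither of the 2 tested was called.

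Each member tested was compared over the 6 libraries with 120 tested genes, those of the lists and the other members. Likeness was measured as the root mean square difference of log2(CPM + 1) values centred on each gene's mean. No other member was among the nearest 3. For Foxc1 the nearest were Runx2 (0.120), Tgfbr2 (0.125) and Ebf3 (0.145). For Prrx1 they were Runx2 (0.124), the endothelial factor Erg (0.129) and the pericyte and mesenchyme receptor Pdgfrb (0.142). For Eya2 the nearest lay farther away: Sox9 (0.282), the macrophage receptor Cx3cr1 (0.330) and Rgs5 (0.361). Tfap2b was nearest to Aldh1a2 (0.104), Tnc (0.117) and Nr2f2 (0.137). These distances rest on 3 libraries a group and include the difference between the groups.

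**Figure D4:**
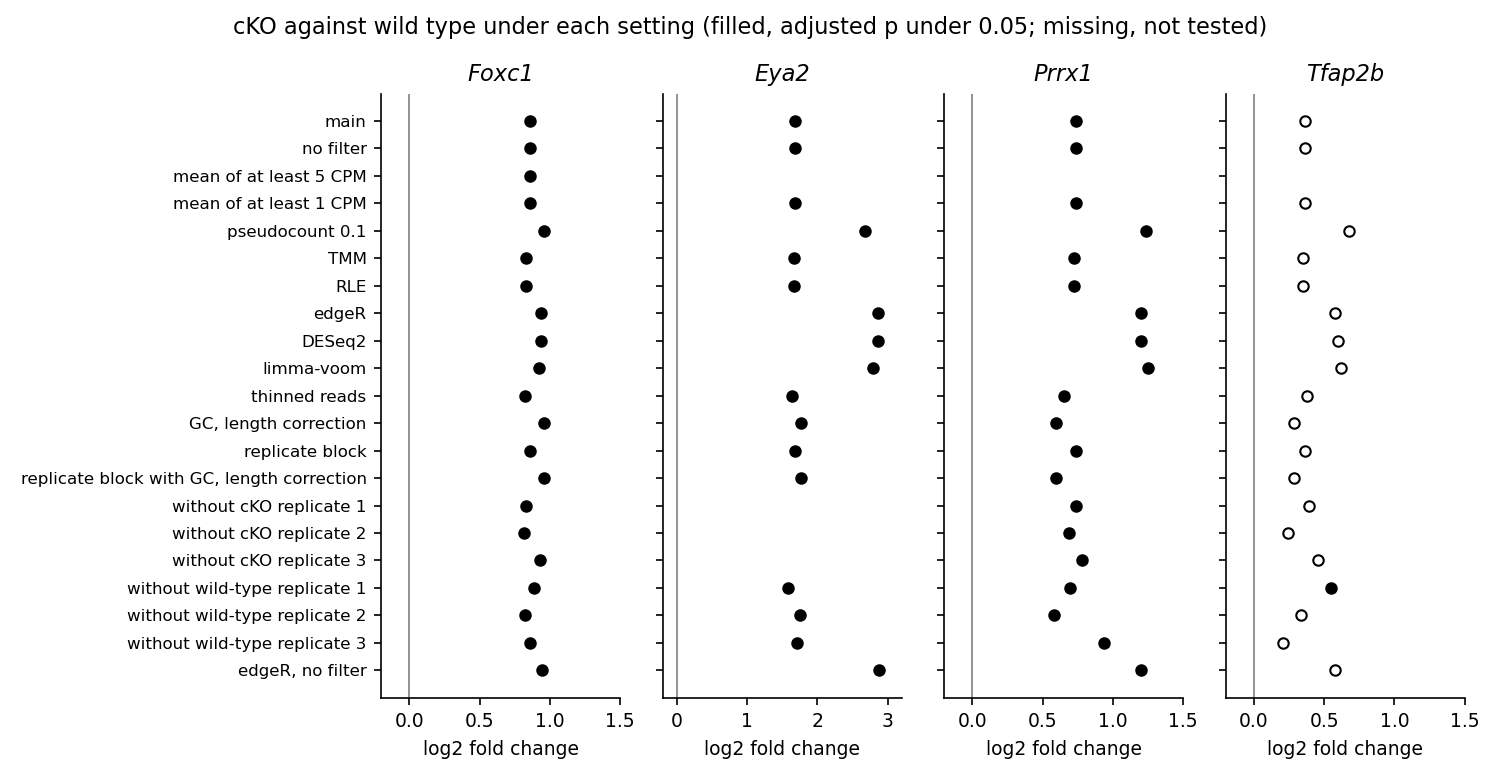
Log2 fold change of the 4 members tested (horizontal axis, own scale per panel) under the main analysis and each alternative but those that keep the genes of the main filter while leaving out replicates; filled points have an adjusted p under 0.05, open points do not, and a missing point means the gene was not tested there. All points lie above 0, Foxc1 in these settings lies between 0.82 and 0.96, and Tfap2b is filled without wild-type replicate 1 alone.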

How the data were processed

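Poly(A) RNA of 6 pooled lens samples was sequenced as 50-base single-end reads with a kit that does not mark strand, per the labels' protocols. The authors deposited CPM and RPKM per gene for each library. The submitters' processing notes name edgeR and GRCm38, and the aligner, counter and annotation release were not given in the sources used here. CPM steps gave whole reads in all libraries (100% of values, tolerance 0.02 reads), summing to 10023049 to 28095318 reads, and these served the count-based alternatives and the exact intervals, which cover counting error only.

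Genes that reached 1 CPM in 3 or more libraries were compared, cKO against wild type, by limma 3.58.1 (R 4.3.3, trend and robust empirical Bayes) on log2(CPM + 1), with Benjamini-Hochberg adjustment over all 11941 genes and a call at an adjusted p under 0.05. A fold change on this scale understates the change of low genes. RPKM was used to compare levels between genes. Alternatives used edgeR 4.0.16, DESeq2 1.42.0, other filters, pseudocounts and scalings, a correction for GC content and length, and leaving out replicates. Genes without a filter by edgeR, replicate 2 left out of both groups and replicates left out with the main genes kept were chosen after seeing the data. On simulated data with 11777 genes, 2-fold changes were recovered for 65% of genes under 5 CPM and 99% of those above, and 6 of 170 calls were false. In it 100 genes changed on each side of 5 CPM, far fewer than were called in the data, so recovery in the data can differ. Twist1 and Lmx1b lay below the wild-type level from which genes were simulated.

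The text names all 8 members, Itgb1, genes overlapping or next to a member, and up to 4 genes per list with the smallest adjusted p. It also names the 3 list genes most like each member tested. Other names (Kera, Lum, Pdgfra, Mfap4, Ogn, Postn, Notch3, Fcer1g, Tyrobp, Tcf12, paralogues, untested factors, remaining calls) were chosen after their values were seen. Members and lists were chosen with earlier results of these data known, and families and motifs after values were seen. The labels call the samples biological replicates. Positions are from GENCODE M21 (GRCm38). Some genes of the lists are counted but not reported by name here.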

Additional observations from a re-analysis of the deposited data

How the results depend on the processing

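Foxc1 was called higher under all 27 alternatives in which it was tested, with log2 fold changes of 0.78 to 0.96. Eya2 was called higher under all 23 in which it was tested (1.49 to 2.87). Since Eya2 passed the main filter through cKO alone, that count is a description. Without a filter, Eya2 was also called (limma adjusted p = 0.000197). Prrx1 was called under 25 of 26 (0.53 to 1.25), the exception being the removal of replicate 2 from both groups. Tfap2b was called under 2 of 26, both without wild-type replicate 1. The count of members called higher was 3, and it was 1 where a mean of at least 5 CPM was required, since Foxc1 alone was then tested. It was 4 without a filter, where Twist1 was called. When replicates were left out it ranged from 2 to 4: it was 2 without each cKO replicate, where Eya2 no longer passed the filter (kept in, it was called), 2 without replicate 2 of both groups, where Prrx1 was not called, and 4 without wild-type replicate 1, where Tfap2b was. Over all genes, leaving out replicates gave 1360 to 2403 called higher and 1322 to 1934 lower, the lowest higher count being without replicate 2 of both groups, against 2499 and 1904. The split moved to 2413 and 2363 with TMM scaling, 2388 and 2388 with edgeR, and 1913 and 2305 with the GC content and length correction. Same-numbered deviations of the 2 groups correlated at 0.33, -0.03 and 0.15. Replicates 1 and 3 of cKO correlated best with the wild-type replicate of the same number, and cKO replicate 2 with wild-type replicate 3. These correlations did not settle whether the replicate numbers pair the samples. A replicate block called 2916 genes higher and 2249 lower, with the same 3 members, and raised the other mesenchyme factors called higher from 8 to 13 and the partners from 3 to 6. At 3 to 30 reads a gene in wild type, Twist1, Lmx1b, Six2, Eya2, Prrx1 and Tfap2b are limited by depth.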
